A study of Mus musculus with 4 samples.

Results

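Dividing CD8+ T cells from mouse tumours treated with ATT-I together with anti-PD-1 were set beside those from tumours treated with anti-PD-1 alone. A cell was taken as a cycling CD8 cell when its deposited values were above 0 for Cd8a and Cd8b1, the chains of the CD8 co-receptor, and for Mki67 and Top2a, a proliferation antigen and a DNA topoisomerase made by dividing cells, when Cd8a was above Cd4, and when Foxp3, the regulator of regulatory T cells, was at 0. The rule found 100 cells among the 199 of the combination library and 1957 among the 12562 of the anti-PD-1 library, 2057 of the 13213 cells in the study. The mice were C57BL/6 with MC38-derived tumours implanted orthotopically, and tumours were taken 2 weeks after treatment began. The protocol lists ATT-I at 50 mg/kg each day and the antibody 3 times a week for 5 doses in all, and gives no other schedule for the combination. The combination arm received both agents, the anti-PD-1 arm the antibody alone, the ATT-I arm ATT-I alone, and the vehicle arm is called untreated in its own label. Each arm pooled 5 tumours into 1 droplet library (10x Genomics), so no arm has a replicate and no difference below carries a test. Intervals cover counting error only, not the spread between mice.

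CD8+ T cells that meet their antigen divide, and the resulting effector cells carry granules of perforin and granzymes and secrete cytokines such as interferon-gamma. PD-1, encoded by Pdcd1, is an inhibitory receptor that activated T cells display, and anti-PD-1 antibodies block it. ATT-I, atractylenolide I, is a sesquiterpene lactone of Atractylodes plants. Cells pass through G1, S, G2 and M phases; DNA replication genes and the replication-dependent histone genes are used in S phase, and genes of the spindle and chromosome segregation in G2 and mitosis.

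The libraries differed in how deeply each cell was read. Cycling CD8 cells of the combination held a median of 30874.5 UMIs (unique molecular identifiers, 1 for each captured RNA molecule), with quartiles of 23644.25 and 38389.5. Those of anti-PD-1 held a median of 13741, with quartiles of 9674 and 18149. By the same rule 38 cells were found with ATT-I and 40 in vehicle, and their levels are given beside some results. A level is given as UMIs of a gene per 10000 UMIs summed over all member cells, which does not scale with depth, and a ratio is the combination's level over that of anti-PD-1, on the log2 scale; an interval after a ratio is its 95% counting interval. Each ratio was also taken after thinning each cell to 5000 UMIs, which left out 76 anti-PD-1 members and 0 combination members that held fewer, and in a depth window, the 50 combination cells and 161 anti-PD-1 cells with 23644.25 to 38389.5 UMIs. The deposited values of the deepest cells list genes with 1 UMI at 0, which touched 25 of the 100 combination cells and 14 of the 1957 anti-PD-1 cells and lowers weakly expressed genes there, so ratios without those cells were computed as well. No cell barcode of a member was shared between libraries, and doublets were not called.

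Among all CD8 cells by the same rule without Mki67 and Top2a, cycling cells made up 100 of 114 in the combination, or 87.7% (95% exact binomial interval 80.3 to 93.1). They made up 1957 of 7679 with anti-PD-1, or 25.5% (24.5 to 26.5). The shares were 36.5% (27.3 to 46.6) of 104 cells with ATT-I and 88.9% (75.9 to 96.3) of 45 cells in vehicle. These shares come from the genes of the rule and are a description of the 4 libraries. With every cell of at least 5000 UMIs thinned to that number and the rest left out, cycling cells were 86 of 106 in the combination (81.1%) and 1335 of 6390 with anti-PD-1 (20.9%). Just inside the rule, 3 combination members and 509 anti-PD-1 members had a single Mki67 UMI, and 2 and 393 had a single Top2a UMI. Just outside it, 7 combination cells and 2526 anti-PD-1 cells had a UMI of only 1 of these genes, with median depths of 21077 and 7771 UMIs. The genes that chose the cells are described without further reading. Mki67 stood at 10.9 per 10000 in the combination and 5.01 with anti-PD-1, Top2a at 13.9 in the combination and 7.57 with anti-PD-1, Cd8a at 7.56 in the combination and 8.73 with anti-PD-1, and Cd8b1 at 7.47 in the combination and 8.87 with anti-PD-1.

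A gene was compared when at least 10% of member cells of either library held a UMI of it, and called when the levels differed by at least 1.5-fold (0.58 on the log2 scale). Of 8839 genes compared, 1860 (21.0%) were at least 1.5-fold higher in the combination and 1015 (11.5%) at least 1.5-fold lower, and the median ratio was 0.10. These shares are the background for the counts below that are taken over all members. Without the cells whose 1-UMI genes were at 0, 2848 of 9050 genes were higher and 628 lower, so that 81.9% of the called genes were higher in place of 64.7%. Centred on the median gene, 1466 were higher and 1355 lower, and 52.0% of the called genes were higher. In the depth window, 3326 of the same 8839 genes (37.6%) were higher and 860 (9.73%) lower, and their median ratio was 0.34; counts and ratios in that window are to be read against these.

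**Figure D1:**
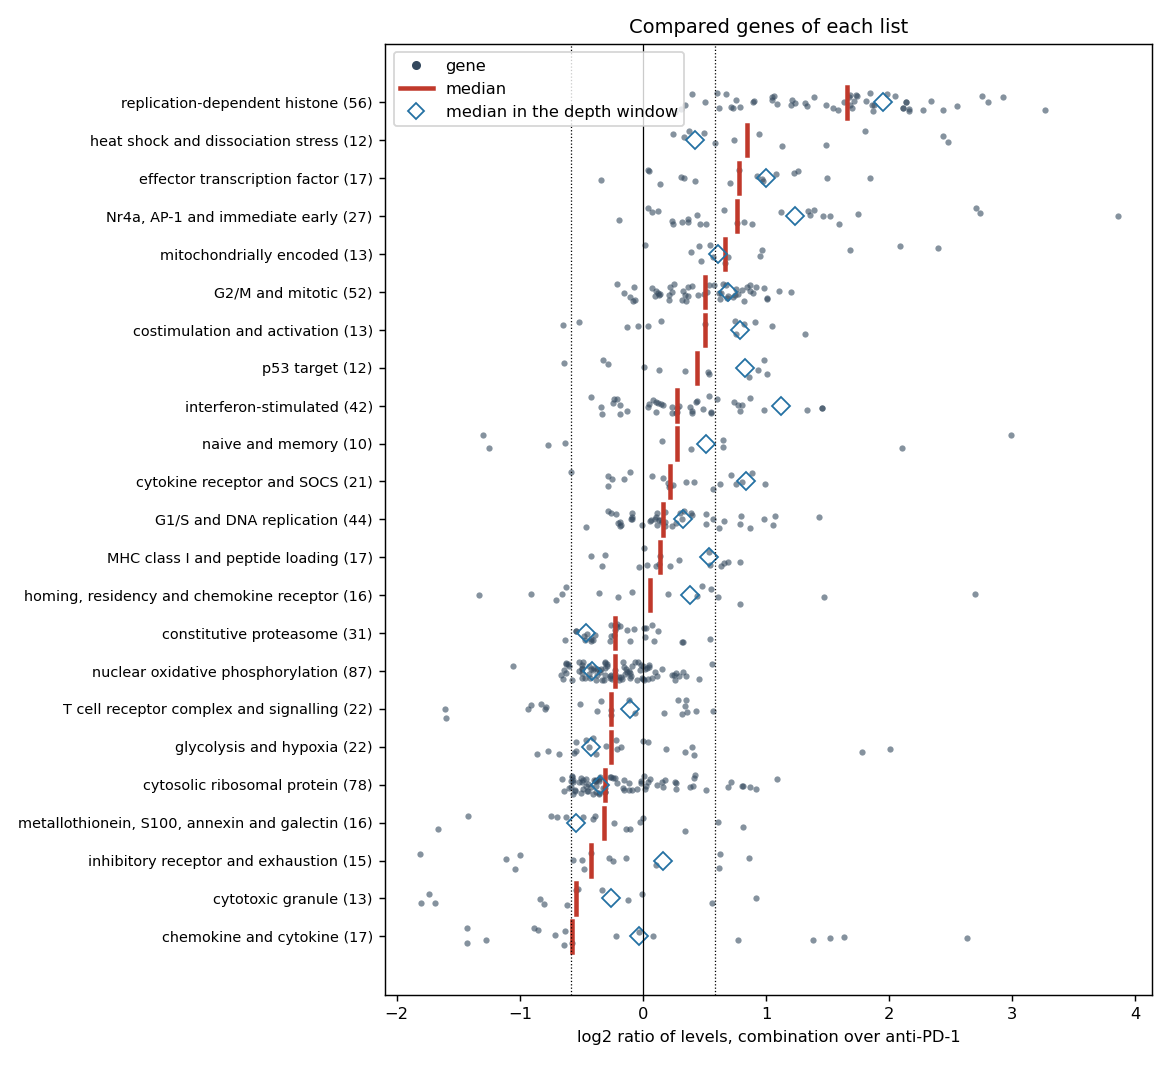
Log2 ratio of levels, combination over anti-PD-1, for every compared gene of each list with at least 10 such genes. Dots are genes, bars the list's median, open diamonds its median in the depth window, and dotted lines 1.5-fold; the number of genes stands in parentheses, and the histone list lies farthest to the right.

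Among the lists with at least 10 compared genes, the median farthest from 0 was that of the replication-dependent histone genes, which supply the core and linker histones that package newly copied DNA. Of 56 compared members, 51 were at least 1.5-fold higher in the combination and 0 lower, with a median ratio of 1.65. Their summed level was 101 per 10000 UMIs in the combination and 34.2 with anti-PD-1. Per cell, the sum had a median of 107 and quartiles of 62.2 and 138 in the combination, against 21.9, 7.24 and 52.8 with anti-PD-1. The lower quartile of the combination thus lay above the upper quartile of anti-PD-1. In CD8 cells of the anti-PD-1 library with no UMI of Mki67 and Top2a the summed level was 6.26. It was 92.6 in cycling CD8 cells of ATT-I and 127 in those of vehicle, both near the combination. With a depth window the median ratio was 1.95, and under a rule of at least 2 UMIs of Mki67 and Top2a it was 1.39.

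Hist1h2ap, an H2A gene, stood at 28.0 per 10000 in the combination and 6.38 with anti-PD-1, a ratio of 2.14 (95% counting interval 2.10 to 2.17). In cells under 20000 UMIs its levels were 30.8 in the combination and 6.38 with anti-PD-1, and in cells of 30000 or more 26.0 in the combination and 5.35 with anti-PD-1, so the gap was present in shallow and in deep cells. The median cell had 28.1 in the combination and 3.23 with anti-PD-1. Hist1h2ab, another H2A gene, was at 4.70 in the combination and 0.672 with anti-PD-1 (log2 ratio 2.81). Hist1h4d, an H4 gene, had a ratio of 2.28 and Hist1h3f, an H3 gene, one of 2.76. The linker histone gene Hist1h1b, at 8.34 in the combination and 5.22 with anti-PD-1, differed less, with a ratio of 0.67. Histone genes of 1 class are nearly identical in coding sequence, so reads may be split among copies, and most of these transcripts end in a stem-loop rather than the poly(A) tail that droplet methods prime on.

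Because the histone genes were higher as a group, the promoter of Hist1h2ab is shown as an example; Hist1h2ap matched more than 1 RefSeq entry. The window runs from 250 bases before the start to 50 after it, at chr13:23750838-23751137 on the plus strand of GRCm38.p6 (RefSeq), and capitals mark CCAAT and TATAAA on either strand, motifs that do not overlap each other here.
Hist1h2ab: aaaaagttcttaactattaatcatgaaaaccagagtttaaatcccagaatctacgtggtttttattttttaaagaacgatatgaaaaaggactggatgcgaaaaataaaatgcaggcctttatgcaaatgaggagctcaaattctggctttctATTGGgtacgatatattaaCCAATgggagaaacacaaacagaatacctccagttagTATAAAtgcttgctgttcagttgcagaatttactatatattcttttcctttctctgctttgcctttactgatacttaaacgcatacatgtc
Of 62 histone genes, 56 matched 1 RefSeq promoter entry, and 47 of those (83.9%) held CCAAT or its reverse complement, against 41.1% of all 27025 genes in the table. TATAAA on either strand was in 33 (58.9%), against 15.7% of all genes. A match is a description of letters, not a site.

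**Figure D2:**
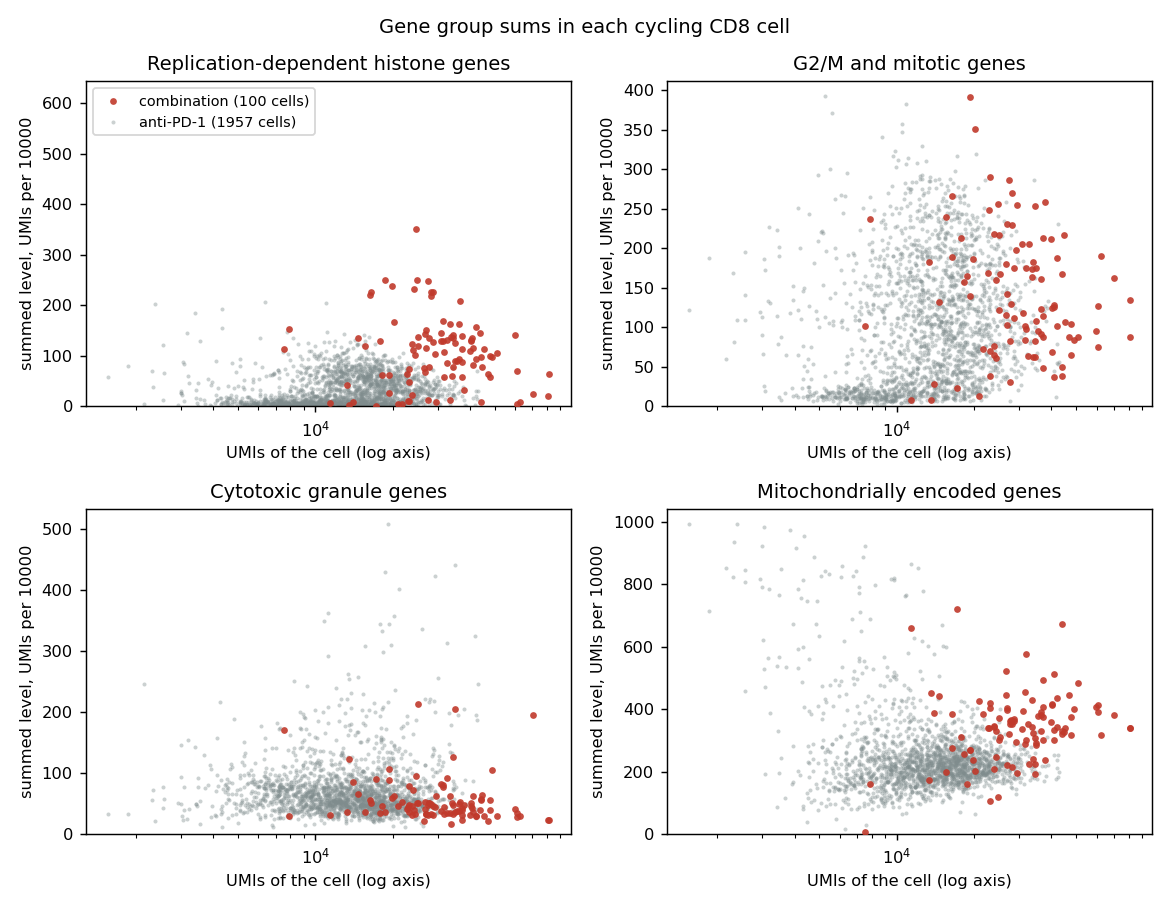
Summed level of 4 gene lists in each cycling CD8 cell (UMIs per 10000) against the cell's UMIs on a log axis; red, 100 combination cells; grey, 1957 anti-PD-1 cells. The combination cells lie to the right, and the lower quartile of their histone sum, 62.2, lies above the upper quartile of anti-PD-1, 52.8.

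Genes of G1/S and DNA replication differed less. Of 44 compared, 9 were at least 1.5-fold higher and 0 lower, 20.5% against the 21.0% background, with a median ratio of 0.17. Pcna, the sliding clamp of DNA polymerases, had the largest ratio, 1.43 (1.32 to 1.53), at 3.03 per 10000 in the combination and 1.12 with anti-PD-1. Dtl, which directs destruction of the replication licensing factor Cdt1, was at 1.29 in the combination and 0.614 with anti-PD-1 (log2 ratio 1.07). Mcm10, a replication initiation factor, was at 0.451 in the combination and 0.217 with anti-PD-1 (log2 ratio 1.06). Hells, a chromatin remodeller, was at 1.93 in the combination and 0.980 with anti-PD-1 (log2 ratio 0.98). These 4 ratios lay between 0.98 and 1.47 in the depth window.

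The 52 G2/M and mitotic genes share the cells' selection by Mki67 and Top2a. Of these, 23 were at least 1.5-fold higher in the combination and 0 lower, with a median ratio of 0.51. Their summed level was 136 in the combination and 108 with anti-PD-1. It was 94.8 with ATT-I and 141 in vehicle, so the higher level was not particular to the combination. Aspm, a spindle pole protein, was at 1.72 in the combination and 0.747 with anti-PD-1 (log2 ratio 1.20). Kif11, a motor that separates spindle poles, was at 2.40 in the combination and 1.19 with anti-PD-1 (log2 ratio 1.01). Cenpe, a kinetochore motor, was at 3.19 in the combination and 1.69 with anti-PD-1 (log2 ratio 0.92). Other genes of mitosis did not differ in this way. Birc5, a subunit of the chromosomal passenger complex, was at 4.32 in the combination and 5.00 with anti-PD-1 (log2 ratio -0.21). Ube2c, a ubiquitin-conjugating enzyme of the anaphase-promoting complex, was at 6.13 in the combination and 6.82 with anti-PD-1 (log2 ratio -0.16). With at least 2 UMIs of Mki67 and Top2a required the list's median was 0.15, and 6 genes (11.5%) were then called higher, against 19.9% of all genes under that rule. More UMIs of the G2/M list than of the G1/S list were found in 80 of 100 combination cells (80.0%, 70.8 to 87.3) and in 1375 of 1957 anti-PD-1 cells (70.3%, 68.2 to 72.3). After thinning the share was 78.0% (68.6 to 85.7) in the combination and 71.1% (69.0 to 73.1) with anti-PD-1, of the 1881 cells that could be thinned.

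Cytotoxic granule genes were lower in the combination, with 6 of 13 compared at least 1.5-fold lower and 1 higher, and a median ratio of -0.54. Gzmb, the main granzyme of effector CD8 cells, stood at 8.76 per 10000 in the combination and 15.3 with anti-PD-1, a ratio of -0.80 (-0.86 to -0.75). It was lower in the combination in each depth class, at 9.84 in the combination and 13.9 with anti-PD-1 under 20000 UMIs, 7.75 in the combination and 16.0 with anti-PD-1 from 20000 to 30000, and 9.02 in the combination and 29.6 with anti-PD-1 above. The gap was widest in the deepest cells, where the anti-PD-1 level was highest. In the other arms Gzmb was at 4.61 with ATT-I and 7.50 in vehicle.

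Prf1, the pore-forming protein perforin, was at 3.00 in the combination and 4.33 with anti-PD-1 (log2 ratio -0.53). Nkg7, a granule membrane protein, was at 16.9 in the combination and 24.6 with anti-PD-1 (log2 ratio -0.54). Neither reached 1.5-fold. Gzmf and Gzmc, granzymes of strongly stimulated mouse T cells, had ratios of -1.69 and -1.80, but 45.9% of the combination's Gzmf UMIs came from 1 cell. Gzma, the tryptase granzyme, was at 3.50 in the combination and 3.82 with anti-PD-1 (log2 ratio -0.13), yet 67.1% of the combination's UMIs came from 1 cell, and without the cells whose 1-UMI genes were at 0 its ratio was -1.42. Srgn, the granule proteoglycan, was level at 9.48 in the combination and 9.55 with anti-PD-1. Serpinb9, an inhibitor of granzyme B, was at 2.17 in the combination and 1.15 with anti-PD-1, a ratio of 0.92 that was 0.24 in the depth window. The list's median was -0.26 in that window.

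Among 17 chemokine and cytokine genes, 8 were at least 1.5-fold lower and 5 higher. Ccl5, a chemokine kept ready in effector CD8 cells, stood at 10.7 in the combination and 29.0 with anti-PD-1, a ratio of -1.43 (-1.48 to -1.38). The gap differed by depth. Under 20000 UMIs the levels were 37.4 in the combination and 33.6 with anti-PD-1, from 20000 to 30000 they were 17.7 in the combination and 19.4 with anti-PD-1, and in deeper cells 4.87 in the combination and 15.2 with anti-PD-1. Ccl5 was lower in deeper cells of both libraries, and the lower level of the combination was seen in its deepest cells. Ccl4, another chemokine of effector CD8 cells, was at 4.95 in the combination and 9.15 with anti-PD-1 (log2 ratio -0.89, and -0.29 in the depth window). Ifng, encoding interferon-gamma, was at 1.90 in the combination and 3.44 with anti-PD-1 (log2 ratio -0.85, and -1.64 in the window).

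Other secreted factors were higher. Xcl1, which attracts cross-presenting dendritic cells, was at 6.58 in the combination and 2.53 with anti-PD-1 (log2 ratio 1.38), with ATT-I at 5.76 and vehicle at 5.82. In the combination 1 cell gave 24.7% of its UMIs, and its ratio was 0.51 in the depth window. Cxcl10, a ligand of CXCR3 induced by interferon, was at 2.74 in the combination and 0.442 with anti-PD-1 (log2 ratio 2.63), and 5 cells gave 60.8% of the combination's UMIs. Tnf was at 0.427 in the combination and 0.149 with anti-PD-1 (log2 ratio 1.52) and was spread more widely, with 34.1% in 5 cells. Areg, the growth factor amphiregulin, had a ratio of 1.63 that rested on few cells: 5 gave 93.7% of its UMIs, and the ratio was -1.41 in the depth window and -1.51 without the cells whose 1-UMI genes were at 0. Ccl1 went the other way (log2 ratio -1.43), with 50.6% of the combination's UMIs from 1 cell, and its ratio was 0.12 when cycle stages were weighted equally.

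**Figure D3:**
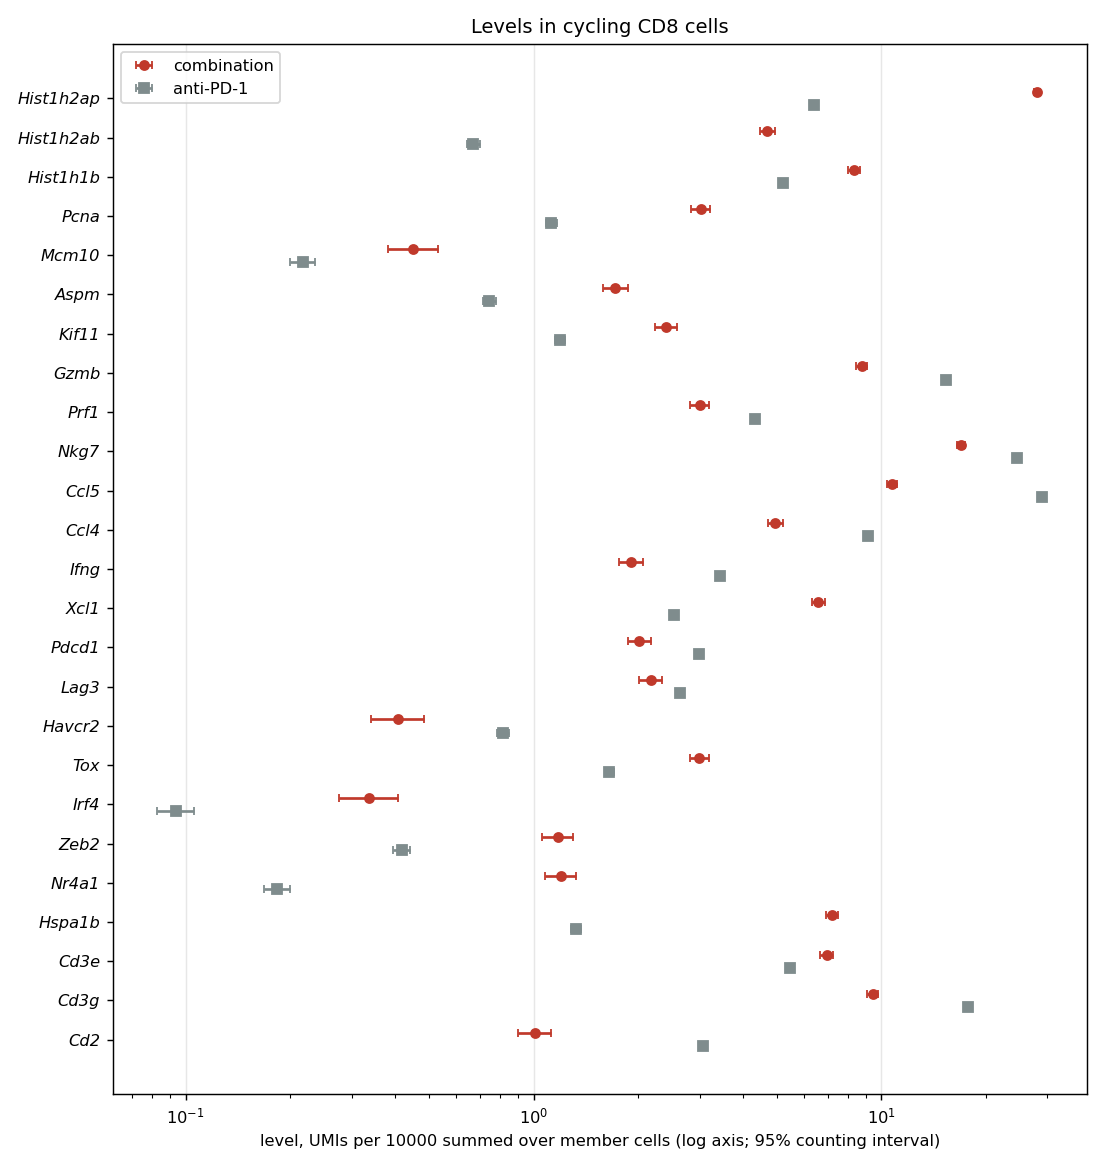
Levels of 25 genes in cycling CD8 cells on a log axis (UMIs per 10000 summed over members; bars, 95% counting interval); red circles, combination; grey squares, anti-PD-1. The histone, replication, Nr4a1 and Hspa1b levels lie to the right in the combination, and those of Gzmb, Ccl5, Cd3g and Cd2 to the left.

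Inhibitory receptors did not move together. Of 15 genes of this list, 4 (26.7%) were at least 1.5-fold lower and 3 (20%) higher in the combination. Over all genes the shares were 11.5% lower and 21.0% higher. After thinning, 4 genes of the list were lower and 1 higher. Pdcd1, the target of the antibody in both arms, stood at 2.02 in the combination and 2.99 with anti-PD-1, a ratio of -0.57 (-0.69 to -0.45) that lay just under 1.5-fold and was -0.54 in the depth window. Havcr2, encoding TIM-3, was at 0.408 in the combination and 0.816 with anti-PD-1 (log2 ratio -1.0). Lag3 was at 2.17 in the combination and 2.63 with anti-PD-1 (log2 ratio -0.28). Cd244, a receptor of the SLAM family, had a ratio of -1.04, which was -0.17 in the window. Among those that were higher, Tox, a nuclear factor of chronically stimulated T cells, was at 3.00 in the combination and 1.65 with anti-PD-1 (log2 ratio 0.86). Ctla4 was at 1.79 in the combination and 1.17 with anti-PD-1 (log2 ratio 0.61). Nrp1, a semaphorin co-receptor, was at 0.705 in the combination and 0.457 with anti-PD-1 (log2 ratio 0.63, and 0.18 after thinning). When centred on the median gene, only 1 gene of the list was called higher, so Tox was called but not Ctla4 or Nrp1. The median of the list was -0.42 over all members and 0.16 in the depth window, below the 0.34 of all genes there. In that window 5 genes (33.3%) were higher, against 37.6% of all genes, and 4 (26.7%) lower, against 9.73%.

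Costimulatory and activation genes were higher more often: 6 of 13 by at least 1.5-fold, with 1 lower and a median of 0.51. Their summed level was 17.1 in the combination, 14.2 with anti-PD-1, 15.4 with ATT-I and 17.6 in vehicle. Cd28 stood at 2.27 in the combination and 1.35 with anti-PD-1 (log2 ratio 0.75). Icos, its inducible relative, was at 1.16 in the combination and 0.686 with anti-PD-1 (log2 ratio 0.75). Il2ra, the high-affinity subunit of the interleukin-2 receptor, was at 0.479 in the combination and 0.193 with anti-PD-1 (log2 ratio 1.31). Cd44, a receptor for hyaluronan raised on activated T cells, was at 1.30 in the combination and 0.629 with anti-PD-1 (log2 ratio 1.05). Tnfrsf9, encoding 4-1BB, was level at 3.46 in the combination and 3.37 with anti-PD-1, as was Cd27 at 1.33 in the combination and 1.37 with anti-PD-1. Tnfrsf18, encoding GITR, was lower at 1.35 in the combination and 2.12 with anti-PD-1 (log2 ratio -0.65). After thinning, in the depth window and with cycle stages weighted equally, 0 of the 13 genes were called lower.

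Genes of naive and memory cells summed to 6.78 per 10000 in the combination and 7.78 with anti-PD-1, and the most abundant were Bcl2, Ly6c2 and Klf2. Bcl2, an inhibitor of apoptosis, was at 1.79 in the combination and 2.77 with anti-PD-1 (log2 ratio -0.63, and 0.43 in the depth window). Ly6c2, encoding the memory and effector surface protein Ly6C, had a log2 ratio of -0.77, which was -0.02 in the window. Klf2, a factor that keeps T cells circulating, was at 0.999 in the combination and 0.896 with anti-PD-1 (log2 ratio 0.16). Tcf7, encoding the factor TCF-1 of stem-like T cells, was at 0.0680 in the combination and 0.161 with anti-PD-1 (log2 ratio -1.25), from 22 UMIs in the combination. Lef1, its relative, was at 0.0587 in the combination and 0.145 with anti-PD-1 (log2 ratio -1.30). Bach2, a repressor that restrains effector differentiation, was higher, at 0.210 in the combination and 0.0264 with anti-PD-1 (log2 ratio 2.99, 95% counting interval 2.5 to 3.48), from 68 UMIs. Ccr7, the lymph node homing receptor, had a ratio of 2.10, but 5 cells gave 94.5% of its combination UMIs and the ratio was -2.64 in the depth window. Of the 10 genes compared, 4 were higher and 4 lower, and the median was 0.27, or 0.01 without the cells whose 1-UMI genes were at 0.

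Genes of the T cell receptor complex split by subunit. Of 22 genes, 7 were at least 1.5-fold lower and 0 higher, -0.26 in the median. Of the CD3 chains that carry the receptor's signal, Cd3g was at 9.43 in the combination and 17.7 with anti-PD-1 (log2 ratio -0.91). Cd3d was at 6.31 in the combination and 10.9 with anti-PD-1 (log2 ratio -0.79). Cd247, the zeta chain, was at 0.730 in the combination and 1.27 with anti-PD-1 (log2 ratio -0.80), while Cd3e was at 6.96 in the combination and 5.45 with anti-PD-1 (log2 ratio 0.35). The receptor's own alpha constant gene, Trac, was level at 7.70 in the combination and 8.06 with anti-PD-1. The largest differences were in surface partners. Cd2, an adhesion receptor, was at 1.01 in the combination and 3.07 with anti-PD-1 (log2 ratio -1.61, 95% counting interval -1.77 to -1.45). Cd6, a scavenger-type receptor, was at 0.328 in the combination and 0.993 with anti-PD-1 (log2 ratio -1.60). Cd2 was lower in the combination in all 3 depth classes, at 1.95 in the combination and 3.20 with anti-PD-1 in the shallowest and 0.806 in the combination and 2.94 with anti-PD-1 in the deepest. Cd52, a short glycoprotein of lymphocytes, was at 19.6 in the combination and 34.7 with anti-PD-1 (log2 ratio -0.83). In vehicle, Cd3g was at 9.21 and Cd52 at 19.3.

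Effector transcription factors were higher than with anti-PD-1, with 10 of 17 at least 1.5-fold higher and 0 lower and a median of 0.78. Their summed level was 33.9 in the combination and 23.2 with anti-PD-1. It was 24.1 with ATT-I and 35.6 in vehicle, so the higher level was not particular to the combination. Irf4, induced in proportion to receptor signal, was at 0.337 in the combination and 0.0938 with anti-PD-1 (log2 ratio 1.85, 95% counting interval 1.51 to 2.17). Zeb2, a zinc-finger factor of terminally differentiated effector cells, was at 1.17 in the combination and 0.418 with anti-PD-1 (log2 ratio 1.49). Bhlhe40 was at 3.65 in the combination and 1.56 with anti-PD-1 (log2 ratio 1.23). Stat4, which carries the interleukin-12 signal, was at 1.95 in the combination and 0.815 with anti-PD-1 (log2 ratio 1.26). Runx3, a factor of the CD8 lineage, was at 3.44 in the combination and 2.11 with anti-PD-1 (log2 ratio 0.71). Tbx21, encoding T-bet, was at 0.550 in the combination and 0.437 with anti-PD-1 (log2 ratio 0.33). Eomes was at 0.383 in the combination and 0.348 with anti-PD-1 (log2 ratio 0.14), neither of them called. Batf, an AP-1 partner of Irf4, was at 0.380 in the combination and 0.481 with anti-PD-1 (log2 ratio -0.34). The list's median was 0.70 after thinning and 1.0 in the depth window, where 13 genes (76.5%) were called higher, against 37.6% of all genes.

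Immediate early genes, which T cells induce within minutes of receptor signal or of tissue handling, were also higher: 15 of 27, with 0 lower and a median of 0.76. Nr4a1, encoding Nur77, a nuclear receptor used as a mark of receptor signal, stood at 1.20 in the combination and 0.183 with anti-PD-1 (log2 ratio 2.71, 95% counting interval 2.51 to 2.90). It was at 1.23 in the combination and 0.181 with anti-PD-1 under 20000 UMIs, and at 1.12 in the combination and 0.246 with anti-PD-1 at 30000 or more, so its gap was found at both ends of depth. Its relatives Nr4a3, at 0.807 in the combination and 0.121 with anti-PD-1 (log2 ratio 2.74), and Nr4a2, at 4.49 in the combination and 2.06 with anti-PD-1 (log2 ratio 1.12), were higher too. Atf3, a stress-induced factor, had the largest ratio of the list, 3.86, at 0.454 in the combination and 0.0314 with anti-PD-1. Nfkbia, the inhibitor of NF-kB that NF-kB itself induces, was at 5.46 in the combination and 1.81 with anti-PD-1 (log2 ratio 1.59).

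Other members of the list did not differ in this way. Egr1 was at 0.856 in the combination and 0.814 with anti-PD-1, Jund at 10.5 in the combination and 10.2 with anti-PD-1, and Jun at 4.16 in the combination and 3.54 with anti-PD-1, with ratios of 0.07, 0.04 and 0.23. In the other arms Nr4a1 was at 0.280 with ATT-I and 0.617 in vehicle, below the combination, and Fosb, which was at 2.24 in the combination and 0.881 with anti-PD-1, was at 1.39 with ATT-I and 0.559 in vehicle. The list's median was 0.73 after thinning and 1.24 in the depth window. Heat shock genes, which rise with warm dissociation as well as with protein stress, moved in the same direction and are given next; their part in the immediate early result was not tested.

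Of 12 heat shock genes, 7 were at least 1.5-fold higher and 0 lower, and the median was 0.84. Hspa1b, an inducible HSP70 gene nearly identical to Hspa1a, was at 7.19 in the combination and 1.33 with anti-PD-1 (log2 ratio 2.44). Hspa1a was at 6.66 in the combination and 1.91 with anti-PD-1 (log2 ratio 1.81). Hsph1, an HSP70 nucleotide exchange factor, was at 3.12 in the combination and 0.560 with anti-PD-1 (log2 ratio 2.48, 95% counting interval 2.36 to 2.59). Hsp90aa1, the inducible HSP90, was at 17.7 in the combination and 6.34 with anti-PD-1 (log2 ratio 1.49). Hsph1 stood apart from the other arms, at 0.897 with ATT-I and 1.11 in vehicle, whereas Hspa1b was at 3.94 with ATT-I and 5.63 in vehicle. The constitutive chaperones differed less, with Hspa8 at 30.2 in the combination and 25.5 with anti-PD-1 and Hsp90ab1 at 33.0 in the combination and 25.5 with anti-PD-1. The median of the list was 0.43 in the depth window, where 5 genes (41.7%) were at least 1.5-fold higher; both values were close to those of all genes in the window, 0.34 and 37.6%.

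Promoters of 1 gene from each of these groups are shown, with the same window and source. That of Nr4a1 lies at chr15:101266596-101266895 on the plus strand, and capitals mark CGTCA or its reverse complement TGACG, the core of the cyclic AMP response element, with 4 matches.
Nr4a1: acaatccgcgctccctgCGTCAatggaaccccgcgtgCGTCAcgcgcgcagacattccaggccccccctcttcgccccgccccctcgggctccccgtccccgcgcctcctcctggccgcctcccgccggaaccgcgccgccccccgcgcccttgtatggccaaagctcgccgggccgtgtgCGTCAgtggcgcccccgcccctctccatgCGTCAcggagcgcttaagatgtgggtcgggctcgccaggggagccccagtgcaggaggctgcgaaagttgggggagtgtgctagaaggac
That of Hspa1b lies at chr17:34959189-34959488 on the minus strand, and capitals mark GAANNTTC, a pair of inverted heat shock element units, with 1 match.
Hspa1b: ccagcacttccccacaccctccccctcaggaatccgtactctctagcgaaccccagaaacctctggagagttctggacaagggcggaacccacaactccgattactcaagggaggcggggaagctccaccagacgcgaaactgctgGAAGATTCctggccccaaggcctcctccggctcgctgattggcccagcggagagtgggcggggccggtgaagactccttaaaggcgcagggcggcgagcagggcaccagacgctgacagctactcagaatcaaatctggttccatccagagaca
CGTCA on either strand was in 14 of the 24 immediate early genes that matched an entry (58.3%), against 23% of all genes. GAANNTTC, which reads the same on both strands, was in 6 of 9 heat shock genes (66.7%), against 9.04% of all genes. Motifs were chosen from what is known of these gene groups, and nothing about the factors follows from a match or its absence.

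**Figure D4:**
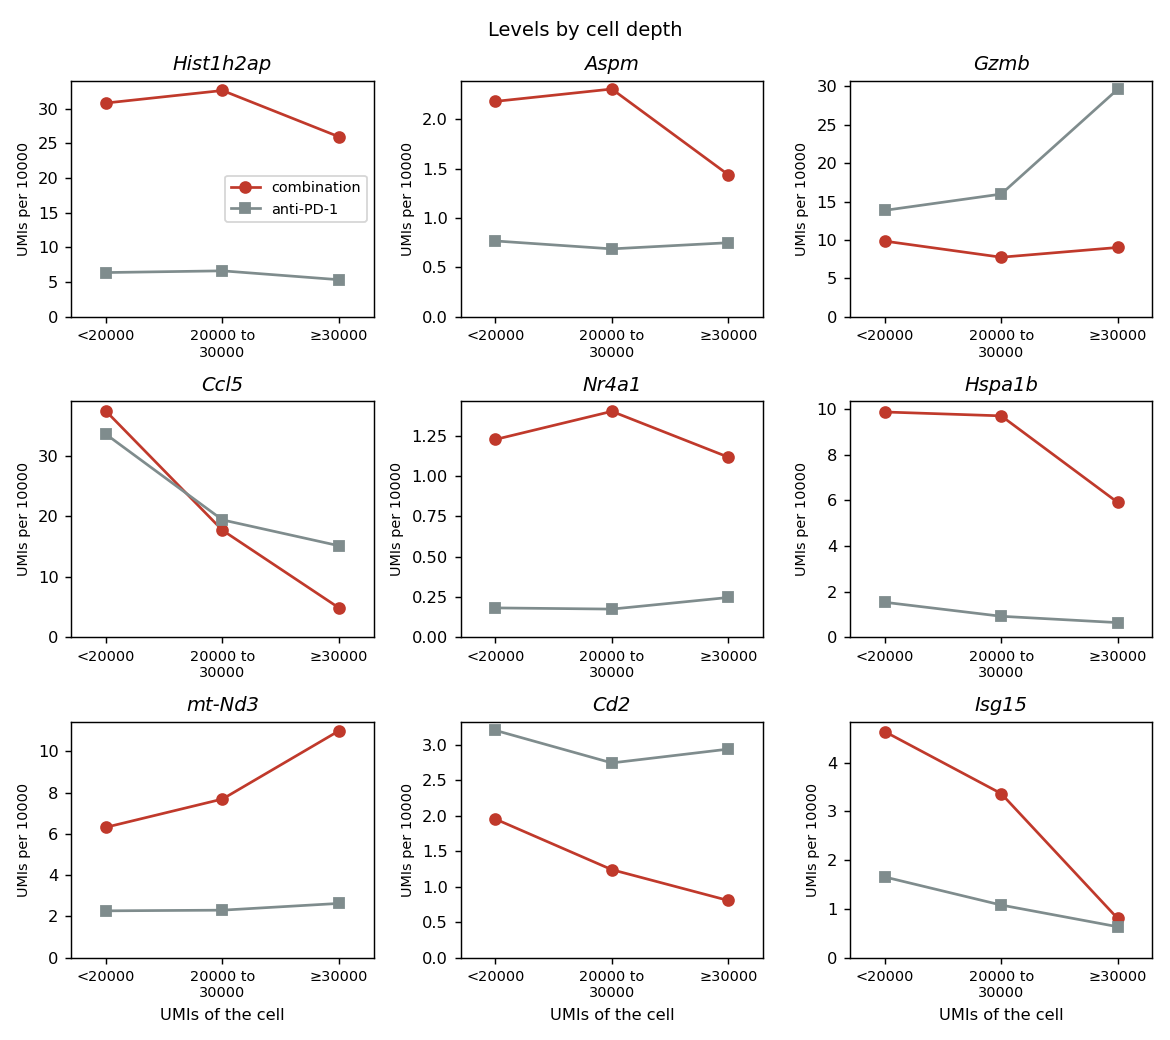
Levels of 9 genes (UMIs per 10000) in cells under 20000 UMIs (17 combination and 1604 anti-PD-1 cells), from 20000 to 30000 (32 and 306) and of 30000 or more (51 and 47); red, combination; grey, anti-PD-1. Hist1h2ap, Nr4a1, Hspa1b, mt-Nd3 and Cd2 keep their order in all 3 classes, while the order of Ccl5 turns and the gap of Isg15 narrows with depth. The deepest class holds the cells whose 1-UMI genes are at 0 (25 combination and 14 anti-PD-1 cells), which lowers weakly expressed genes there.

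Interferon-stimulated genes were split by gene and by depth. Of 42, 10 were at least 1.5-fold higher (23.8%, against the 21.0% background) and 0 lower, and the median was 0.28. Gbp6, a guanylate-binding protein, was at 0.436 in the combination and 0.159 with anti-PD-1 (log2 ratio 1.46). Oas1a, an antiviral synthetase, was at 0.306 in the combination and 0.112 with anti-PD-1 (log2 ratio 1.45). Isg15, a ubiquitin-like modifier, was at 1.76 in the combination and 1.45 with anti-PD-1 (log2 ratio 0.28). Ifit3 was at 0.390 in the combination and 0.461 with anti-PD-1 (log2 ratio -0.24). In the depth window the median was 1.12 and 37 genes (88.1%) were at least 1.5-fold higher, against a median of 0.34 and 37.6% for all genes there. Isg15 was at 4.63 in the combination and 1.65 with anti-PD-1 under 20000 UMIs but at 0.806 in the combination and 0.634 with anti-PD-1 at 30000 or more. That deepest class includes the cells whose 1-UMI genes were at 0, and without those cells the list's median was 0.69. The ATT-I library had a lower summed level of the list, 32.3, than the combination at 53.8, anti-PD-1 at 43.4 and vehicle at 58.4.

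Genes of MHC class I presentation were close, with 4 of 17 at least 1.5-fold higher, 0 lower and a median of 0.14. Of all genes compared, 21.0% were higher and 11.5% lower. B2m, the light chain, was at 31.5 in the combination and 25.6 with anti-PD-1 (log2 ratio 0.30), and the heavy chains H2-K1 and H2-D1 were at 22.4 in the combination and 28.3 with anti-PD-1 (log2 ratio -0.33) and at 17.7 in the combination and 23.7 with anti-PD-1 (log2 ratio -0.42). Nlrc5, the transactivator of class I genes, was at 0.578 in the combination and 0.359 with anti-PD-1 (log2 ratio 0.69). No gene of 5 immunoproteasome and PA28 genes passed 1.5-fold. Of 31 constitutive proteasome genes 1 was lower and 0 higher, with a median of -0.23, and Psmd4, a ubiquitin receptor of the proteasome, was at 1.60 in the combination and 1.85 with anti-PD-1 (log2 ratio -0.21).

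The mitochondrially encoded genes, subunits of the respiratory chain, were higher in the combination, with 7 of 13 at least 1.5-fold higher and 0 lower. Their sum was 353 per 10000 in the combination and 233 with anti-PD-1, and it was 375 with ATT-I and 373 in vehicle, so the anti-PD-1 library was the one that stood apart. Ratios ranged from 0.02 for mt-Nd4l to 2.40 for mt-Nd6, and mt-Nd3 was at 9.78 in the combination and 2.30 with anti-PD-1 (log2 ratio 2.09). The share of mitochondrial UMIs is also read as a sign of RNA quality, and its part in the other differences was not tested. Nuclear genes of oxidative phosphorylation did not share this direction, with 0 of 87 higher, against 21.0% of all genes, and a median of -0.23. The 9 that were lower were close in share to the 11.5% of all genes.

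Cytosolic ribosomal protein genes summed to 2313 per 10000 in the combination and 2702 with anti-PD-1, with 3006 in ATT-I and 2352 in vehicle. Of 78 genes, 4 were at least 1.5-fold lower and 7 higher, with a median of -0.31. The genes ran in opposite directions, from -0.66 for Rpl11 to 1.09 for Rps28, and many have processed pseudogene copies that can take their reads. In glycolysis, 3 of 22 genes were lower and 2 higher, against 11.5% and 21.0% of all genes. Hk2, the inducible hexokinase, was at 0.362 in the combination and 0.105 with anti-PD-1 (log2 ratio 1.78). Aldoa, an aldolase, was at 5.57 in the combination and 9.50 with anti-PD-1 (log2 ratio -0.77).

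Homing receptors were mixed, with 4 of 16 higher and 5 lower, against 21.0% and 11.5% of all genes. Cxcr6, a receptor of tissue-resident T cells, was at 2.94 in the combination and 5.52 with anti-PD-1 (log2 ratio -0.91, and -0.44 in the depth window). Cx3cr1, the fractalkine receptor of effector cells, was at 1.03 in the combination and 0.369 with anti-PD-1 (log2 ratio 1.47). Itga4, the alpha 4 integrin, was at 3.39 in the combination and 1.96 with anti-PD-1 (log2 ratio 0.79). Of 7 genes of natural killer receptors on CD8 cells, 1 was at least 1.5-fold lower, 1 higher and 5 between, and the median was -0.18. The lower was Klra3, a Ly49 receptor, at 0.0618 in the combination and 0.353 with anti-PD-1 (log2 ratio -2.51). The higher was Klrc2, an activating NKG2 chain, at 1.81 in the combination and 0.869 with anti-PD-1 (log2 ratio 1.06). Klrc2 is, like Klra3, 1 of a family of near-identical genes.

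Cytokine receptor and SOCS genes (SOCS proteins inhibit cytokine signal) had 6 of 21 at least 1.5-fold higher and 1 lower, and their median was 0.22. The counts of this paragraph stand beside 21.0% of all genes higher and 11.5% lower. Il2rg, the common gamma chain, was at 2.82 in the combination and 1.72 with anti-PD-1 (log2 ratio 0.72). Il21r, the interleukin-21 receptor, was at 1.59 in the combination and 0.856 with anti-PD-1 (log2 ratio 0.89). Of 16 metallothionein, S100, annexin, galectin and cytoskeletal genes, 5 were lower and 2 higher, and the median was -0.31. Lgals3, encoding galectin-3, was at 0.745 in the combination and 2.0 with anti-PD-1 (log2 ratio -1.42). Vim, the intermediate filament vimentin, was at 6.28 in the combination and 10.5 with anti-PD-1 (log2 ratio -0.75). Of 12 p53 targets, 4 were higher and 1 lower. Cdkn1a, the cell cycle inhibitor p21, was at 0.745 in the combination and 0.377 with anti-PD-1 (log2 ratio 0.98). Bax, a pro-apoptotic protein, was at 1.81 in the combination and 2.82 with anti-PD-1 (log2 ratio -0.64).

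Some genes shared with regulatory T cells were higher in these cells, which the rule had taken only when Foxp3 was at 0. Of 5 such genes compared, 4 were at least 1.5-fold higher and 0 lower. The list's median was 1.31, but 0.57 after thinning to 5000 UMIs, just under 1.5-fold. Ikzf4, encoding the factor Eos, was at 0.377 in the combination and 0.104 with anti-PD-1 (log2 ratio 1.86, and 3.18 in the depth window), with 0.0701 in ATT-I and 0.279 in vehicle. Ikzf2, encoding Helios, was at 3.08 in the combination and 2.29 with anti-PD-1 (log2 ratio 0.42). Ikzf2 was not called. Il2ra and Ctla4, given above, and the chemokine receptor gene Ccr8 were the other genes called, though Ctla4 was not when centred on the median gene. These and Ikzf2 are also members of lists above, so the count is not independent of theirs.

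Outside the lists, genes were named when a UMI was found in at least 25% of cells of the library where they were higher, with at least 50 UMIs over both libraries, and when the direction held at 1.5-fold after thinning and in the depth window; the 12 farthest in each direction were taken. Tsix, an RNA antisense to Xist, was farthest, at 3.13 in the combination and 0.219 with anti-PD-1 (log2 ratio 3.84). It was at 0.505 with ATT-I and 3.86 in vehicle. Xist itself was at 18.6 in the combination and 13.6 with anti-PD-1 (log2 ratio 0.44). Whether the counting used strand is not given in the sources used here, so it is not known if reads of these partners were kept apart. The other 11 were Irs2, an insulin receptor substrate (0.711 in the combination and 0.0765 with anti-PD-1, log2 ratio 3.22), Kdm6b, an H3K27 demethylase (0.705 in the combination and 0.133 with anti-PD-1, log2 ratio 2.41), Nfkbiz, an atypical NF-kB regulator (0.754 in the combination and 0.142 with anti-PD-1, log2 ratio 2.41), Abcb1b, a drug efflux pump (0.872 in the combination and 0.192 with anti-PD-1, log2 ratio 2.18), and Myadm, Rccd1, Igfbp7, Slc5a3, Phykpl, Mid1 and Creb3l2, with log2 ratios from 2.10 to 2.45.

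The farthest in the lower direction was Filip1, at 0.0464 in the combination and 0.584 with anti-PD-1 (log2 ratio -3.65, 95% counting interval -4.49 to -2.93), from 15 UMIs in the combination. Ifitm2, an interferon-induced membrane protein, was at 0.192 in the combination and 1.39 with anti-PD-1 (log2 ratio -2.86), with 74.2% of the combination's UMIs in 5 cells. Cd7, a lymphocyte surface protein, was at 0.352 in the combination and 1.83 with anti-PD-1 (log2 ratio -2.38, and -0.99 in the depth window). For Cd7, 41.2% of the combination's UMIs came from 1 cell. Epdr1, Matk, Eif4ebp1, Rgs10, Eno3, Gstp3, Hexa, Rgs14 and Chchd10 had log2 ratios from -2.55 to -1.44.

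Receptor variable genes were unevenly used in both libraries. Of 12 beta variable genes in the table, Trbv2 had the most UMIs in 41 of the 63 combination cells with any such UMI (65.1%, 52.0 to 76.7) and in 240 of the 595 anti-PD-1 cells (40.3%, 36.4 to 44.4). The cells of the libraries differ in depth, which bears on how many hold such a UMI. Expanded clones and a general preference for a variable gene cannot be told apart from these values.

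Most markers of other cells were low in both libraries, but Fcer1g was not with anti-PD-1. A UMI of any monocyte or macrophage marker was found in 28% of combination and 56.8% of anti-PD-1 cells. For red blood cell markers the shares were 5% in the combination and 44.3% with anti-PD-1. Endothelial, epithelial and gamma-delta T cell markers were found in a larger share of combination cells. These shares are not corrected for depth, which was greater in the combination, and the summed epithelial level, given below, was lower there. The monocyte and macrophage markers summed to 0.207 per 10000 in the combination and 2.82 with anti-PD-1, of which Fcer1g alone gave 0.0587 in the combination and 2.55 with anti-PD-1. 2 of the 8 macrophage markers in the table had no UMI in the combination. Fcer1g, an immunoreceptor adaptor of myeloid and natural killer cells that some CD8 cells also express, had 19 UMIs in the combination, 78.9% of them in 1 cell, and 7230 with anti-PD-1 (log2 ratio -5.44, and -4.40 in the depth window); it was at 0.996 with ATT-I and 0.916 in vehicle. Lyz2, a defining macrophage gene, was at 0.0464 in the combination and 0.0596 with anti-PD-1. Red blood cell genes summed to 0.0155 in the combination and 0.435 with anti-PD-1, with 14.2 in ATT-I, so the ATT-I library stood highest. Dendritic cell markers summed to 0.0773 in the combination and 0.333 with anti-PD-1, fibroblast markers to 0.00618 in the combination and 0.122 with anti-PD-1, B cell markers to 0.00927 in the combination and 0.0264 with anti-PD-1, natural killer markers, which include Eomes, to 0.386 in the combination and 0.554 with anti-PD-1, endothelial markers to 0.102 in the combination and 0.0793 with anti-PD-1, and epithelial markers to 0.0773 in the combination and 0.106 with anti-PD-1. Ncr1, which defines natural killer cells, had no UMI in the combination and 66 with anti-PD-1, and Klrb1c had none in the combination and 196 with anti-PD-1. CD4 T cell markers summed to 0.0155 in the combination and 0.0828 with anti-PD-1, and gamma-delta T cell markers to 0.924 in the combination and 0.831 with anti-PD-1; neutrophil markers were not analysed here. The part of any of these in the differences was not tested.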

How the data were processed

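Single-cell RNA of tumours was measured in 4 arms with 1 pooled library each, prepared by a 10x Genomics method per the labels' protocols. Tools listed in the submitters' processing notes are Seurat and Cell Ranger, and the build is mm10; versions and filters on cells are not given in the sources used here. The deposited values of the 13518 genes and 13213 cells are on a natural log scale. They fit ln(1 + 10000 × UMIs of the gene / UMIs of the cell) less 1 constant per library (0.225 for the combination, 0.249 for anti-PD-1), with values below 0 set to 0; this was read from the deposited values, not from a stated step, and 100% of non-zero values came out within 0.02 of a whole UMI. Cells were assigned to libraries by column name.

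Recovered UMIs were summed over member cells of each library and divided by their total, 3234557 UMIs in the combination and 28367399 UMIs with anti-PD-1. Levels have exact Poisson intervals and ratios exact conditional binomial intervals (Python 3.11.15, scipy 1.17.1); intervals cover counting error only, and a gene with no UMI in a library is floored at 3 UMIs for its ratio. The interval code was tested on simulated data. With 1 library per arm no p-value was computed. Named genes were members of 39 lists plus, outside them, the 12 farthest in each direction that met the limits on cells, UMIs and depth given with them. Members and lists were chosen with earlier results of these data known. Alternatives covered depth, thinning, membership, weighting, denominator, filter and fold. Non-cycling CD8 cells were not compared, since the combination had 7, under the minimum of 50. Promoters came from RefSeq (GRCm38.p6) and were matched by symbol or synonym.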

Additional observations from a re-analysis of the deposited data

How the results depend on the processing

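List medians, gene counts and single-gene ratios were recomputed under thinning, the depth window, other membership rules, weights and denominators; the cycling share was recomputed with at least 2 UMIs, after thinning and without cells whose 1-UMI genes were at 0, and the share with more G2/M than G1/S UMIs under the last 2 of these; the settings without cells whose 1-UMI genes were at 0 were chosen after seeing the data. Histone, effector transcription factor, immediate early, heat shock, costimulation, mitochondrial, G2/M and interferon-stimulated medians were above 0 in every setting run, and cytotoxic, ribosomal and T cell receptor medians below 0. The median of all genes also moved with the setting. In the depth window it was 0.34, close to the 0.43 of heat shock. With at least 2 UMIs of Mki67 and Top2a it was 0.07, close to the 0.15 of G2/M. The chemokine, inhibitory receptor, naive and memory and G1/S medians each crossed 0 or reached it in at least 1 setting. As a mean over cells, the list median was 0.55 (mitochondrial). With members thinned to 5000 UMIs, list medians were -0.36 (chemokine), -0.35 (ribosomal), 0.58 (mitochondrial), 0.74 (heat shock). For the gene counts, the genes compared were chosen anew in each setting, so each count is given with its own total. After thinning, 627 of 5713 genes were lower, against 1015 of 8839 over all members. With the rule applied after thinning, list medians were -0.42 (cytotoxic), 0.56 (mitochondrial), -0.13 (T cell receptor). In the depth window, list medians were 0.69 (G2/M), 1.95 (histone), -0.26 (cytotoxic), -0.0318 (chemokine), 0.16 (inhibitory receptor), 0.51 (naive and memory), -0.35 (ribosomal), 0.61 (mitochondrial), 1.12 (interferon-stimulated), 0.43 (heat shock), 1.24 (immediate early), 1.0 (transcription factor), 0.79 (costimulation), -0.10 (T cell receptor). Of the 9511 genes that passed the filter in that window, 3655 were higher, whereas the 3326 given above are of the 8839 compared in all members. With at least 2 UMIs of Mki67 and Top2a, list medians were 0.15 (G2/M), 1.39 (histone), 0.0377 (chemokine), -0.24 (ribosomal). Without the deepest 10% of cells, the list median was -0.16 (chemokine). With cycle stages weighted equally, list medians were 0.43 (G1/S), 0.10 (chemokine), 0.58 (mitochondrial), 0.57 (heat shock), 0.57 (immediate early). With mitochondrial, ribosomal and histone genes out of the denominator, the list median was -0.35 (ribosomal). Without the cells whose 1-UMI genes were at 0, list medians were 0.67 (G2/M), -0.16 (inhibitory receptor), 0.00765 (naive and memory), -0.39 (ribosomal), 0.56 (mitochondrial), 0.69 (interferon-stimulated), 0.71 (heat shock), 0.93 (transcription factor), 0.76 (costimulation), and of 9050 genes 2848 were higher and 628 lower. Relative to the median gene, list medians were -0.41 (ribosomal), 0.57 (mitochondrial), 0.75 (heat shock). In the depth window without those cells, list medians were 0.66 (G2/M), 1.92 (histone), -0.29 (cytotoxic), -0.0927 (chemokine), 0.17 (inhibitory receptor), 0.50 (naive and memory), -0.35 (ribosomal), 0.60 (mitochondrial), 1.11 (interferon-stimulated), 0.42 (heat shock), 1.21 (immediate early), 0.99 (transcription factor), 0.78 (costimulation), -0.12 (T cell receptor), and 3556 of 9543 genes were higher. With a 25% filter, 532 of 6655 genes were lower. With no filter, list medians were -0.63 (naive and memory), 0.33 (costimulation), and of 13354 genes 3973 were higher and 2079 lower. With a fold limit under 1.5, 3145 genes were higher and 2100 genes were lower. At 2-fold, 589 of the 8839 genes were higher and 286 lower. The cycling share of anti-PD-1 CD8 cells was 16.6% with at least 2 UMIs of each gene and 20.9% after thinning. Areg turned to -1.41 in the depth window, -1.51 without the cells whose 1-UMI genes were at 0 and -1.14 with both, Ccr7 to -2.64, -1.88 and -2.70, Bcl2 to 0.43 in the depth window with and without those cells, and Ccl1 to 0.12 with cycle stages weighted equally. The cause was not tested. Depth limits genes under about 3 UMIs in the combination, which has 100 member cells, and the spread between mice could not be measured. No paired analysis was possible because each arm has 1 pooled library.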
